A study of Homo sapiens with 2 samples.

Results

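The genes described here encode 9 G protein-coupled receptors that HEK293T cells may carry without any transfection: the nucleotide receptors P2RY1, P2RY2, P2RY4 and P2RY11, the adenosine receptor ADORA2B, the muscarinic acetylcholine receptor CHRM3, the thrombin receptor F2R, the lysophosphatidic acid (LPA) receptor LPAR1 and the sphingosine 1-phosphate (S1P) receptor S1PR2. They are listed by name, by a rule that uses no measured value, although earlier results of these data were known when the list was made. They were found through their Ensembl identifiers among the 57736 genes of the deposited tables, where each of the 9 had 1 row. Poly(A)+ RNA was sequenced in 2 libraries of HEK293T cells, a human embryonic kidney line with the large T antigen of SV40. The cells were wild type and untreated, and grew in DMEM with 10% serum at 37 °C to 80% confluency. Both libraries formed 1 group, so the comparisons made were those of genes with each other and of the 2 libraries with each other. The libraries held 10593491 and 10104118 estimated counts, the reads assigned to genes.

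G protein-coupled receptors span the membrane with a bundle of helices and, once a ligand binds, switch on heterotrimeric G proteins inside the cell. Gq starts the phospholipase C beta pathway that releases calcium from stores, Gs raises cyclic AMP through adenylyl cyclases, Gi lowers it, and G12 and G13 act on the small GTPase RhoA. HEK293T cells are a common host for receptors expressed from plasmids, and the receptors that the cells make themselves form the background of such assays. RNA levels describe transcripts only and say nothing of receptor protein at the surface. In bulk RNA, fewer cells with a transcript and less of it per cell cannot be told apart.

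Levels are given as TPM, a share of transcripts that corrects for transcript length and adds up to the same total in each library, so that genes can be set against each other. Detection here means that the TPM reached 1 in each of the replicates. Of the 9 receptors, 7 were detected, and 63.7% of 19391 protein-coding genes passed the same rule. The median of the 9 mean TPM values was 5.06, against 6.50 over all protein-coding genes. The 9 receptors together held 65.08 TPM in replicate 1 and 64.63 in replicate 2. These levels rested on few reads, since the 9 genes took up 980 estimated counts in replicate 1 and 930 in replicate 2. Labels do not say that the replicates came from separate cultures, so any spread between them may be technical.

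**Figure D1:**
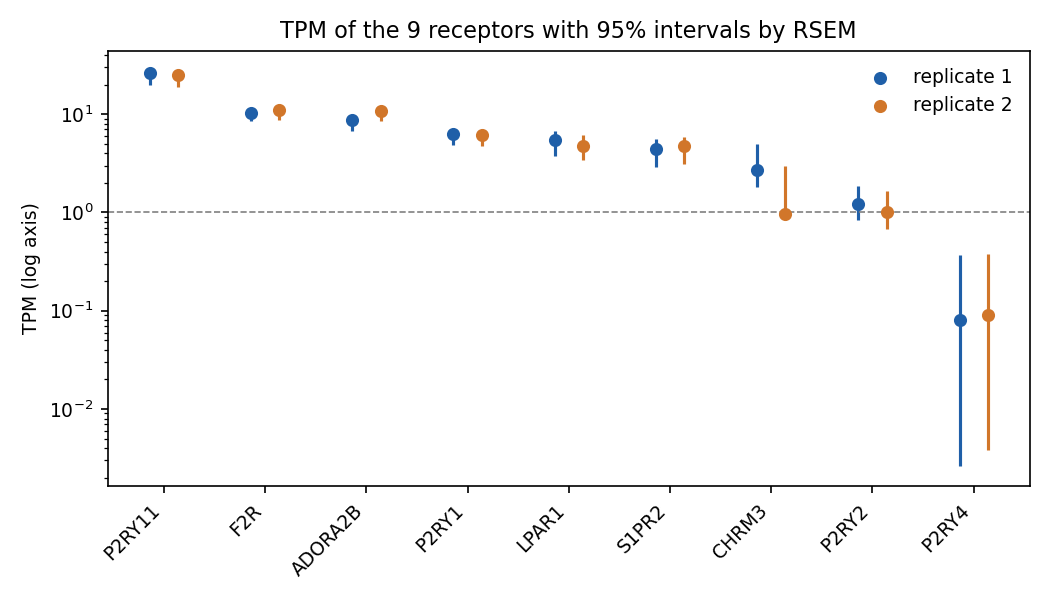
TPM of the 9 receptors in replicate 1 and replicate 2 on a log axis, in the order of their mean, with lines for the 95% intervals that RSEM gave each library and a dashed line at a TPM of 1. P2RY11 stood highest at a mean of 25.6, P2RY2 lay just above the line, and P2RY4 lay far below it with 1 count in each library.

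Among the nucleotide receptors, P2RY11 had the highest TPM of the 9. P2RY11 encodes a receptor for ATP that couples to both Gq and Gs, and its gene lies on chromosome 19 from 10222369 to 10226048 on the plus strand (GRCh37). Its TPM was 26.00 in replicate 1 and 25.15 in replicate 2, a mean of 25.6 ± 0.601 (SD, n = 2). The authors' value for the pooled reads of both libraries was 25.66. P2RY11 thus made up 40.0% of the summed TPM of the 9 receptors in replicate 1 and 38.9% in replicate 2. In raw reads it was less apart, with 256 and 231 estimated counts, because its transcripts are short, with a mean length of 1369 nt and 1326 nt as weighted in the libraries. The reads of this gene are shared with others, as described next, so this level depends on how RSEM, the program that made the tables, divided them.

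P2RY11 lies downstream of PPAN, a gene for a nucleolar factor of ribosome synthesis, and a readthrough gene called PPAN-P2RY11 joins the exons of both. In the GENCODE models on GRCh37, 1312 of the 2140 exonic bases of P2RY11, or 61.3%, also belong to another gene. PPAN-P2RY11 shares 1148 bases on the same strand, EIF3G, a translation initiation factor gene, shares 116 on the opposite strand, and PPAN shares 48. Of all 50-base windows of the P2RY11 transcripts, the length of the reads, 55.9% occur in a transcript of another gene, on either strand. These are 1100 windows in PPAN-P2RY11, 67 in EIF3G and 1 in PPAN. The 67 in EIF3G match in reverse complement, since EIF3G lies on the opposite strand. All 4 spliced transcripts of P2RY11 and PPAN-P2RY11 enter an exon that starts at base 10224309 of chromosome 19. This exon ends at base 10225456 at the latest in PPAN-P2RY11 and runs on to base 10226048 in P2RY11-201, so the last 592 bases of P2RY11-201 lie beyond the readthrough gene. The 4 junctions are printed because the bases before the splice are 1 of the places where the receptor gene and the readthrough gene differ, with those bases in lower case and the shared exon in capitals (plus strand, GRCh37, 15 bases on each side):
P2RY11-201, splice from base 10222416: cagccaacgtctcggGTGCCAAGTCCTGCC
P2RY11-202, splice from base 10223131: tggcaccagtaatggGTGCCAAGTCCTGCC
PPAN-P2RY11-201, splice from base 10221698: gggaaatggatcgagGTGCCAAGTCCTGCC
PPAN-P2RY11-202, splice from base 10221760: tcccagggagcccagGTGCCAAGTCCTGCC
A read that starts in the capitals and lies wholly within the shared part of this exon is the same in the receptor gene and in the readthrough gene.

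The replicates divided the reads of the overlapping genes differently. PPAN-P2RY11 was given 0 estimated counts in replicate 1 and 90.1 in replicate 2, with a posterior SD, RSEM's own measure of how uncertain the division is, of 31.4 and 33.2 counts. Its TPM was 0 and 5.37, and the 95% intervals of 0.184 to 6.28 and 0.484 to 7.27 overlapped almost entirely. Averaged over the possible divisions (the posterior mean), the readthrough gene had 60.9 and 67.0 counts, which differ by less than 1 posterior SD. P2RY11 itself was steadier, with posterior SDs of 13.5 and 13.2 counts and posterior means of 247 and 227, against estimates of 256 and 231. PPAN, whose exons the readthrough gene also joins, had estimates of 1013 and 881 and posterior means of 961 and 908. In each library PPAN thus moved opposite to the readthrough gene, with posterior SDs of 26.85 and 27.05 counts. An exact binomial test of the estimated counts called PPAN-P2RY11 different between the libraries (adjusted p = 5.459e-26), but this test does not know of the posterior SD.

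Of the counts of P2RY11 and PPAN-P2RY11 together, P2RY11 held 100% in replicate 1 and 71.9% in replicate 2, whereas with posterior means it held 80.2% and 77.2%. The sum of these 2 genes was 256 and 321 estimated counts, or 308 and 294 by posterior means, so the shares also depend on the readthrough gene. With PPAN added, the estimated counts came to 1269 and 1201. PPAN, with 1013 and 881 counts and a TPM of 108 and 106, and EIF3G, with 1783 and 1670 counts and a TPM of 239 and 232, were both read far more. As a share of the counts of all 4 genes, P2RY11 made up 8.39% and 8.04%, a mean of 8.21% ± 0.248 (SD, n = 2). The sources used here do not give whether reads were counted by strand, so reads from the ends shared by P2RY11 and EIF3G cannot be told apart with certainty.

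**Figure D2:**
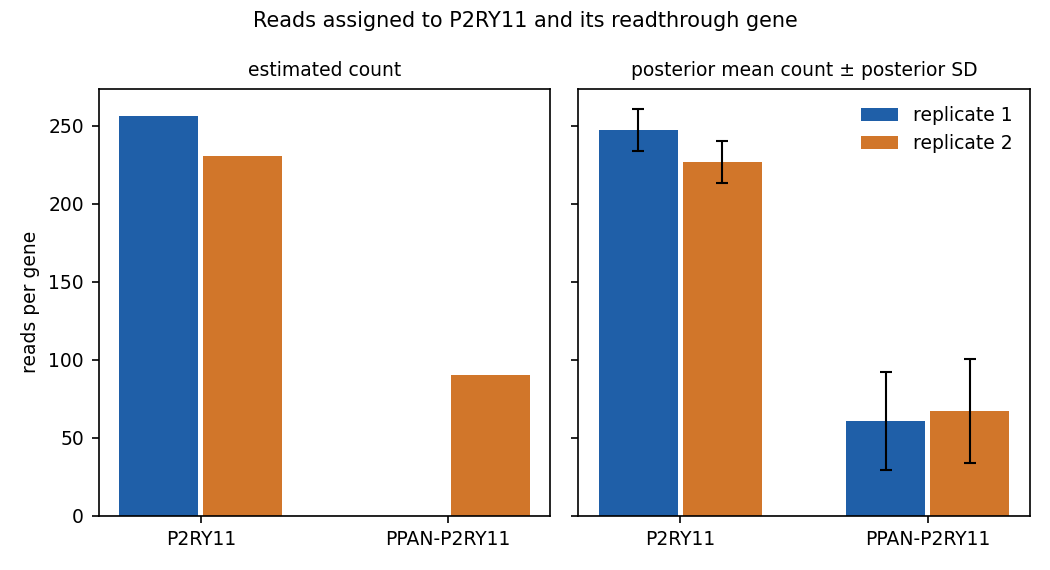
Reads assigned to P2RY11 and PPAN-P2RY11 in replicate 1 and replicate 2, as estimated counts on the left and as posterior mean counts with the posterior SD as error bars on the right. The readthrough gene has 0 and 90.1 estimated counts but 60.9 and 67.0 by the posterior mean, while P2RY11 lies between 227 and 256 in both panels.

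The other nucleotide receptors spanned a wide range. P2RY1, a receptor for ADP that couples to Gq (chromosome 3, 152552920 to 152559228, plus strand), had a TPM of 6.31 and 6.19 from 144 and 136 counts, a mean of 6.25 ± 0.0849 (SD, n = 2). P2RY2, a Gq-coupled receptor for ATP and UTP (chromosome 11, 72929326 to 72953472, plus strand), had a TPM of 1.22 and 1.01 from 22 and 19 counts. It thus lay just inside the limit for detection, and RSEM's 95% intervals of 0.830 to 1.88 and 0.686 to 1.66 reached below it. P2RY4, a receptor for UTP (chromosome X, 69478016 to 69480054, minus strand), had 1 count in each library and a TPM of 0.08 and 0.09, with intervals up to 0.367 and 0.379. Each count was whole and shared with no other gene, so P2RY4 was read, but at under the 3 counts that a gene with 0 reads could still have at this depth, or 0.283 and 0.297 CPM (counts scaled to the library's total). Such limits cover counting error only, since PCR copies are not independent molecules.

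ADORA2B, the low-affinity adenosine receptor that couples to Gs (chromosome 17, 15848444 to 15879060, plus strand), had a TPM of 8.71 in replicate 1 and 10.88 in replicate 2, a mean of 9.79 ± 1.53 (SD, n = 2). It was read 110 and 133 times. F2R, also known as PAR1, is cut by thrombin and then activated by its own new N-terminus (chromosome 5, 76011951 to 76031595, plus strand). Its TPM was 10.23 and 10.94, a mean of 10.6 ± 0.502 (SD, n = 2), from 288 and 267 counts. F2R was thus read more often than P2RY11 in both libraries although its TPM was lower, since its transcripts had a mean length of 3821 nt and 3445 nt.

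Of the lipid receptors, LPAR1 couples to Gi, Gq and the G12 class (chromosome 9, 113635543 to 113800750, minus strand). It had 79 counts in each library and a TPM of 5.41 and 4.71, a mean of 5.06 ± 0.495 (SD, n = 2). S1PR2 couples strongly to the G12 class (chromosome 19, 10332109 to 10342007, minus strand). Its TPM was 4.41 and 4.70 from 37 and 38 counts, a mean of 4.56 ± 0.205 (SD, n = 2). The single transcript of S1PR2 in the files is 1173 nt long and is not among the GENCODE models used here. P2RY1 is 3106 nt in the files against 6309 nt in those models, and P2RY4 is 1639 nt against 2039 nt. P2RY2 had a mean length of 2458 nt and 2660 nt as weighted in the libraries, against 2174 to 8619 nt in those models. TPM values of these genes hold for the gene models of the files.

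CHRM3, the muscarinic receptor that couples to Gq (chromosome 1, 239549865 to 240078752, plus strand), was the least stable of the 9 in TPM. It had 2.71 in replicate 1 and 0.96 in replicate 2, a 2.82-fold difference and a mean of 1.83 ± 1.24 (SD, n = 2), and so missed the rule for detection in replicate 2. Its reads, 43 and 26 counts, differed less, by 1.57-fold in CPM, which from here on uses the scaled library sizes of the tests. The remainder came with the length that RSEM divided by, which rose 1.78-fold between the libraries, from a mean transcript length of 2172 nt to 3828 nt. CHRM3 has 6 transcripts in the files, which measure between 581 and 8780 nt in the GENCODE models. Both counts were whole, with a posterior SD of 0, so no read was shared with another gene and the difference in length came from the division among its own transcripts. The 95% intervals of 1.81 to 5.00 and 0.902 to 2.96 overlapped, and the posterior mean TPM of 3.39 and 1.88 was above 1 in both.

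**Figure D3:**
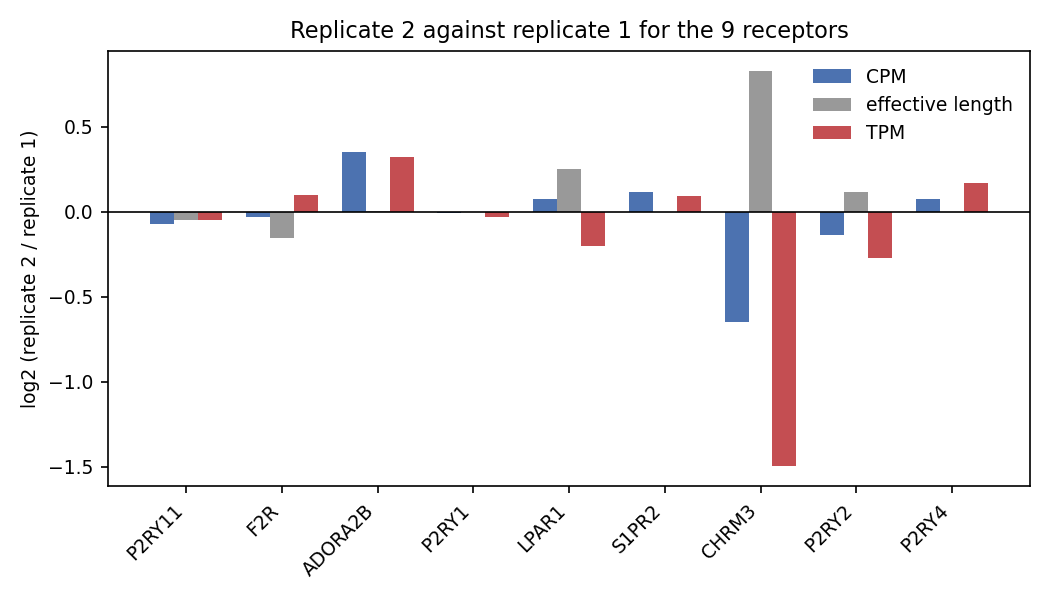
Log2 ratio of replicate 2 to replicate 1 for the CPM, the effective length (the transcript length open to reads, as weighted by RSEM) and the TPM of each of the 9 receptors. For CHRM3 the CPM ratio of -0.65 less the effective length ratio of 0.83 comes close to the TPM ratio of -1.50, whereas P2RY1 lies at about 0 in all 3.

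Reads were shared with other genes in few of the 9. Estimated counts were whole numbers in both libraries for 7 of them, all but P2RY11 and F2R, and the posterior SD of F2R was only 0.26 and 0.37 counts. In the GENCODE models, P2RY2 shares 3361 exonic bases with a gene that has no symbol on the same strand. The lengths of P2RY2 differ between these models and the files, so this overlap may not hold for its counts. CHRM3 shares 269 with CHRM3-AS2 and 14 with a gene that has no symbol on the opposite strand, and F2R shares 39 with another such gene. CHRM3-AS2 had 1 and 4 counts, the gene beside P2RY2 had 11 and 14, and the others had 0 in both libraries.

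No receptor passed a test for a difference between the libraries. Of the 8 that had a summed count of at least 10, 0 passed a two-sided exact binomial test on rounded counts with Benjamini-Hochberg adjustment over all 17920 genes tested, of which 3.87% were called. At an unadjusted p under 0.05 the number was also 0, against 13.3% of all genes. ADORA2B, with a log2 CPM ratio of 0.35 (adjusted p = 0.416 by this exact test), and CHRM3, with -0.65 (adjusted p = 0.443), were the nearest to a call. Adjusted p of the other 6 lay at 0.936 or above. This test compares the 2 libraries and not conditions. Restricted to the 8675 genes with whole counts in both libraries, it called 0.807%.

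The order of the levels, from the highest mean TPM to the lowest, was P2RY11, F2R, ADORA2B, P2RY1, LPAR1, S1PR2, CHRM3, P2RY2 and P2RY4. To see which neighbours differ, the summed counts of each of the 36 pairs were tested against the ratio of their effective lengths by an exact binomial test with adjustment over the pairs, and a pair was called separate only if its TPM ranges did not overlap as well. By both criteria 33 pairs were separate. With 2 values against 2, an exact permutation test cannot go below p = 0.333, so the test of counts covers counting error only. P2RY11 was 2.42-fold higher than F2R per length (95% interval of the count ratio 2.14 to 2.74, exact binomial adjusted p = 1.721e-43). ADORA2B was 1.56-fold higher than P2RY1 (1.31 to 1.86, adjusted p = 5.405e-07), and P2RY1 in turn 1.25-fold higher than LPAR1 (1.02 to 1.52, adjusted p = 0.0315). The last interval takes lengths as known, although the effective length of LPAR1 was 1959 nt in replicate 1 and 2338 nt in replicate 2. RSEM's 95% TPM intervals of P2RY1, 4.92 to 6.81 and 4.80 to 6.72, overlapped those of LPAR1, 3.77 to 6.75 and 3.42 to 6.21.

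Lower in the order, S1PR2 was 2.85-fold higher than CHRM3 in counts per length (2.03 to 4.01, exact binomial adjusted p = 7.164e-10). This interval takes the length of CHRM3 as known, although its effective length was 2123 nt in replicate 1 and 3779 nt in replicate 2. The TPM of S1PR2 and CHRM3 was 4.41 and 2.71 in replicate 1, but 4.70 and 0.96 in replicate 2. By mean TPM the ratio was 2.48. P2RY2 was 13-fold higher than P2RY4 (adjusted p = 4.211e-07), with a wide interval of 3.37 to 111 because P2RY4 had 2 counts in all. The 3 pairs that were not separate were all neighbours. F2R and ADORA2B had overlapping TPM ranges and a ratio of 1.08 (0.928 to 1.26, adjusted p = 0.334). LPAR1 and S1PR2 had ranges that did not overlap, but their ratio of 1.10 (0.833 to 1.47, adjusted p = 0.535) was within counting error. CHRM3 and P2RY2 overlapped, with a ratio of 1.43 (0.959 to 2.16, adjusted p = 0.0737).

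Each of the 9 was next set beside the other receptors of its family, 24 of 25 listed genes with a row (ADORA3 had none). Of these 24, 8 were detected, or 33.3%, 4 had 0 counts in both libraries, and the median of their mean TPM was 0.158. In the P2Y family, P2RY14, a receptor for UDP-sugars, was the only other one of 6 that was detected, with a TPM of 1.05 and 1.46. The 4 listed nucleotide receptors held 95.2% ± 1.49 (SD, n = 2) of the TPM of the 10 P2Y genes. P2RY11 alone had 26.00 of the family's 34.93 TPM in replicate 1 and 25.15 of 34.47 in replicate 2. This share thus rests mainly on a gene with shared reads. In the adenosine family ADORA2B held 65.1% ± 6.21 (SD, n = 2). ADORA2A, which like ADORA2B couples to Gs, had a TPM of 3.60 and 3.95. Its counts of 19.7 and 44.1 were called different between the libraries (log2 CPM ratio 1.24, exact binomial adjusted p = 0.0428). They had posterior SDs of 11.1 and 13.9 counts, which the test does not know of. ADORA2A shares 2380 exonic bases with the readthrough gene SPECC1L-ADORA2A. By the posterior mean TPM, ADORA2A had 7.07 and 6.03 and ADORA2B had 8.18 and 10.16. The share of ADORA2B and the direction of the TPM difference in ADORA2A thus depend on the estimate used. ADORA1, a Gi-coupled receptor, had a TPM of 2.04 and 0.83.

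The muscarinic family had no detected gene, and CHRM3 was the only one of its 5 genes with more than 3 counts in either library. The thrombin receptor family, by contrast, had 2 detected genes of 4. F2R held 56.0% ± 0.150 (SD, n = 2) of its TPM, and most of the rest was F2RL1, or PAR2, a receptor cut by trypsin-like proteases, with a TPM of 7.81 and 8.31 from 167 and 171 counts.

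In the lipid receptor families other genes were as high as or higher than the receptors listed. LPAR1 held 18.9% ± 0.732 (SD, n = 2) of the TPM of the 6 LPA receptor genes. LPAR3 was higher, with a TPM of 13.12 and 12.09, and so was LPAR2, with 8.58 and 7.19. Neither range overlapped the 4.71 to 5.41 of LPAR1. S1PR2 held 36.4% ± 2.35 (SD, n = 2) of the 5 S1P receptor genes, of which 4 were detected. S1PR3, which couples to Gi, Gq and the G12 class, had a TPM of 4.38 and 4.86, a range that encloses the 4.41 to 4.70 of S1PR2. S1PR1, a Gi-coupled receptor, had 1.31 and 2.79, and S1PR5 had 1.31 and 1.17.

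**Figure D4:**
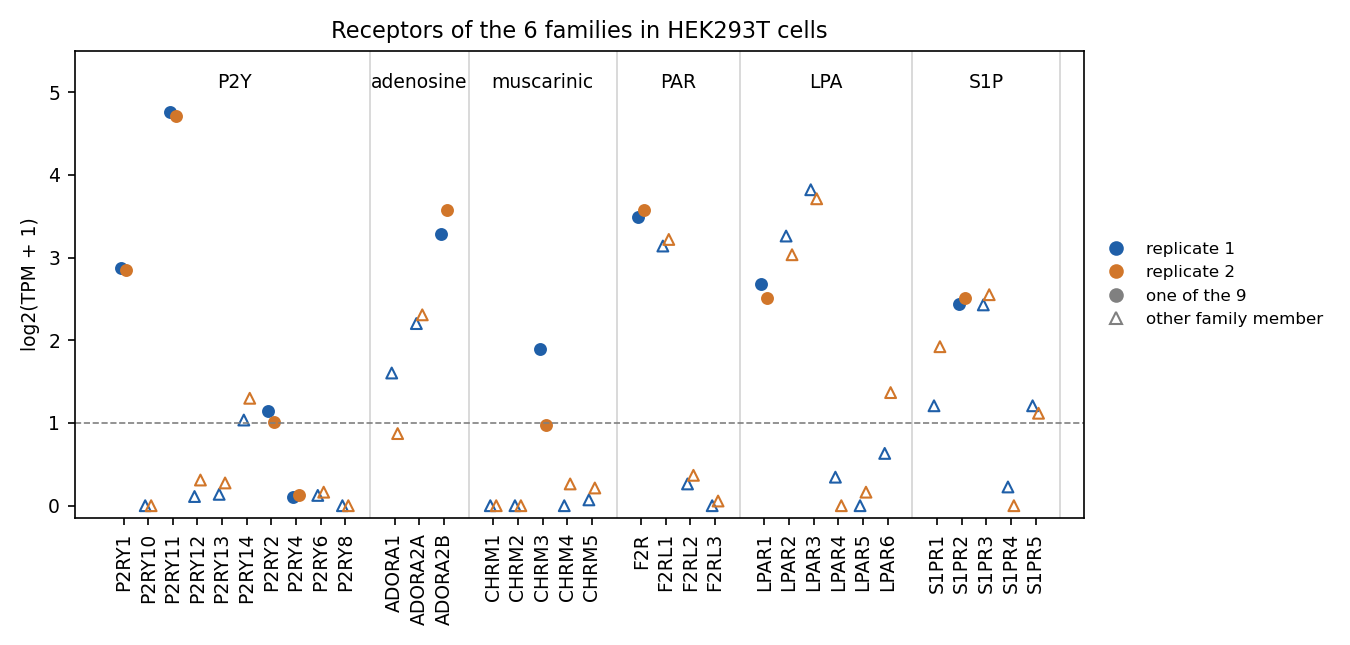
Receptors of the 6 families on a scale of log2(TPM + 1), with filled circles for the 9 receptors, open triangles for the other genes of each family, blue for replicate 1, orange for replicate 2 and a dashed line at a TPM of 1. P2RY11 and P2RY1 stand above all other P2Y genes, CHRM3 stands alone in its family, and LPAR3 and LPAR2 lie above LPAR1.

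Most of the 9 were high beside the listed receptors of other families. A further 141 genes for receptors of amines, peptides, lipids and hormones and of classes B and C were listed, of which 139 had a row. Of these, 21 were detected, or 15.1%, 34 had 0 counts in both libraries, and the median of their mean TPM was 0.125. Among all 172 receptor genes P2RY11 ranked 1 by mean TPM, F2R 6, ADORA2B 7, P2RY1 11, LPAR1 12, S1PR2 14, CHRM3 30, P2RY2 40, and P2RY4 lay further down. GABBR1, a subunit of the GABA-B receptor, was second with a TPM of 18.93 and 17.92. LTB4R, a leukotriene B4 receptor, had 11.24 and 12.86, and ADRA2C, an alpha-2 adrenergic receptor, had 9.66 and 11.79, a range that encloses that of F2R. Among the peptide receptors CXCR4, the receptor of the chemokine CXCL12, was the highest with 4.92 and 3.92. The ranks are those of the lists used and do not cover every receptor gene. The 9 and the lists were chosen with earlier results of these data known, so the ranks only describe them.

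The next highest receptors of each list were lower. Among the amine receptors DRD4, a dopamine receptor, had a TPM of 3.92 and 4.59, and HTR6, a serotonin receptor, had 2.22 and 2.37. EDNRA, an endothelin receptor, had 3.22 and 4.42, and MC1R, a melanocortin receptor, had 3.04 and 4.17. PTGFR, the receptor of prostaglandin F, and GPER1, which binds oestrogen, had 2.66 and 2.99 and 2.44 and 1.98. VIPR1 and ADCYAP1R1, receptors of the peptides VIP and PACAP, had 7.96 and 6.14 and 2.18 and 1.80. LTB4R2 alone among these lists was called different between the libraries, with 0 and 22.9 counts (exact binomial adjusted p = 9.859e-06). Its counts had posterior SDs of 5.61 and 7.97, which the test does not know of. RSEM's TPM intervals of 0.406 to 3.37 and 1.80 to 6.36 overlapped, and the posterior mean TPM was 1.78 and 4.0. In the GENCODE models, 1903 of its 3233 exonic bases also belong to other genes. The size of this difference thus depends on the estimate used. From DRD4 to LTB4R2, all the receptors given here had a mean TPM below that of ADORA2B.

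The genes that make, release or remove the ligands were examined next, and 20 of 41 were detected, or 48.8%. For nucleotides and adenosine 7 of 13 were detected. SLC29A1 and SLC29A2, the equilibrative transporters that carry adenosine across the membrane, were the highest with a TPM of 60.61 and 59.61 and of 22.44 and 21.05. ENPP1, an ectoenzyme that splits ATP, followed with 16.26 and 17.04. Of the P2X channels, the ion channels opened by ATP, P2RX4 was the only one of 7 detected, with 9.48 and 7.26. P2RX2 had 0.94 and 1.71 and P2RX5 had 0.33 and 0.35.

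For acetylcholine 2 of 5 genes were detected, both for enzymes that break it down, BCHE with a TPM of 4.74 and 4.05 and ACHE with 2.88 and 2.11. SLC18A3, the transporter that loads acetylcholine into vesicles, had 1 count in each library. For thrombin 1 of 4 was detected, the inhibitor gene SERPINE2 with 18.16 and 15.59. SERPINC1, which encodes antithrombin, had 0.70 and 0.27, and THBD, which encodes thrombomodulin, had 0.20 and 0.17. For LPA 3 of 6 were detected: the phosphatase genes PLPP3 with 11.21 and 11.02 and PLPP1 with 7.68 and 8.71, and ENPP2, or autotaxin, which makes LPA outside the cell, with 2.25 and 1.86. For S1P all 6 were detected, led by the kinase gene SPHK2 with 16.26 and 20.07, the lyase gene SGPL1 with 14.61 and 16.47 and the phosphatase gene SGPP1 with 8.34 and 8.96.

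Genes that act below the receptors were detected more often, 28 of 33 or 84.8%, with a median of their mean TPM of 7.59. All 4 phospholipase C beta genes, the effectors of Gq, were detected, led by PLCB3 with a TPM of 16.27 and 16.76, PLCB1 with 8.18 and 8.82 and PLCB4 with 3.86 and 5.02. Of 9 adenylyl cyclase genes 6 were detected, with ADCY3 at 54.84 and 49.48, ADCY6 at 19.34 and 20.23 and ADCY9 at 18.41 and 17.09. The 3 RhoGEF genes that receive the signal of G12 and G13 were all detected, ARHGEF12 at 42.89 and 40.36, ARHGEF1 at 30.88 and 34.98 and ARHGEF11 at 20.16 and 17.64.

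The genes that switch receptors off were detected as well. All 5 receptor kinase genes, whose products phosphorylate active receptors, were detected, with GRK6 at a TPM of 67.35 and 61.26, GRK2 at 54.50 and 45.98 and GRK3 at 10.78 and 8.92. Of 12 RGS genes, which speed the shut-off of G proteins, 10 were detected, with RGS10 at 25.76 and 20.53, RGS19 at 17.17 and 18.02 and RGS14 at 15.78 and 15.12. Of the 23 ligand genes and 29 effector genes with enough counts for the exact binomial test of the libraries, 0 were called after adjustment, and 2 and 4 had an unadjusted p under 0.05.

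**Figure D5:**
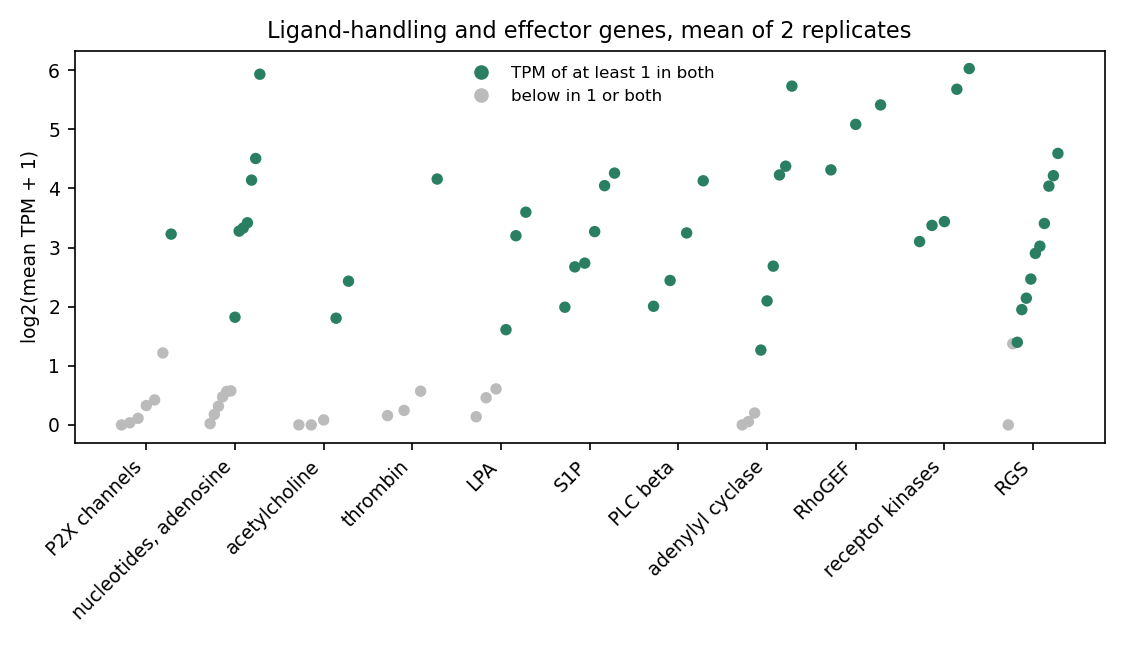
Mean TPM of the 2 replicates as log2(mean TPM + 1) for the 41 ligand genes and the 33 effector genes, by list, with green points for genes whose TPM reached 1 in each replicate and grey points for the others. All genes of the S1P, phospholipase C beta, RhoGEF and receptor kinase lists are green, while 6 of the 7 P2X channels are grey.

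The cell type was checked with marker lists. Of 9 kidney markers, 3 were detected, among them the developmental regulator genes EYA1, with a TPM of 10.86 and 9.21, and PAX2, with 4.34 and 2.47. The mature kidney markers CDH16, UMOD and AQP2 had 0 counts in both libraries, and SLC12A1 had a TPM of 0.22 and 0.03. Of 7 neuronal markers, 5 were detected, led by UCHL1 with 250.77 and 255.52, INA with 21.82 and 22.97 and NEFM with 9.93 and 11.09. Of the markers of other cells, 0 of 3 endothelial genes and 1 of 5 fibroblast genes (COL1A1, 10.26 and 7.51) were detected. Of 5 blood markers, 1 was detected, while CD3E and HBB had 0 counts in both libraries and PTPRC had a TPM of 0.22 and 0.11. With no condition to compare, their part in the receptor levels was not tested.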

How the data were processed

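RNA-Seq data of 2 samples of HEK293T cells, 1 group by their labels, were used. Per the submitters' processing notes, the authors used Trimmomatic 0.36, STAR 2.6.1c and RSEM 1.3.1 with GRCh37. The study's methods name featureCounts, but the deposited tables have the columns of RSEM output. Estimated counts, as deposited, share out reads that fit several genes. TPM and FPKM values were computed by the authors and are scaled by length. Posterior SDs and interval bounds are scores deposited by the authors. A table of the pooled reads holds the authors' estimated count and TPM for both libraries together.

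Symbols were matched for 96.1% of 57736 identifiers, and coordinates and sequences came from GENCODE release 44 on GRCh37. Estimated counts were rounded for tests. Library sizes were scaled by TMM (edgeR 4.0.16, R 4.3.3), also for CPM, and exact binomial tests used scipy 1.17.1. The limits of 0.283 and 0.297 CPM used the library totals instead. Both tests were checked on simulated counts that held sampling error only, so this check does not cover divided reads or uncertain lengths. The receptors and all lists were chosen with earlier results of these data known. Genes named were the 9 receptors, genes with overlapping exons, detected family members, the 3 highest genes of each other list and listed genes that differed between the libraries, and markers, ADORA1 and SPECC1L-ADORA2A were named beyond this rule after their values were seen. Alternatives were other thresholds, units, scalings, lengths and denominators, and leaving out each replicate. With 10593491 and 10104118 estimated counts, precision is limited for genes with few reads. Some kidney and blood markers are not reported here.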

Additional observations from a re-analysis of the deposited data

How the results depend on the processing

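The number of the 9 receptors detected was 7 and moved most with a TPM limit of 5, to 4 (51.7% of protein-coding genes passed). It was 8 with a limit of 0.1, with 10 estimated counts or with the posterior mean TPM, 6 with an FPKM limit of 1, and 7 to 8 when either replicate was left out (61.5% to 74.2% of protein-coding genes). The 8 related receptors became 3 with a TPM limit of 5, 5 with an FPKM limit of 1 and 9 without either replicate. The 20 ligand genes became 31 with a TPM limit of 0.1, and 20 to 21 without a replicate. Effector genes ranged from 28 to 29 without a replicate. The 21 other receptors became 62 with a TPM limit of 0.1, 4 with a limit of 5, 42 with the posterior mean TPM, and 23 to 24 without a replicate. The number of receptors that differed between the libraries was 0 with DESeq2 size factors, with total counts, with no filter on low counts and among whole counts only. Of all genes tested, 3.87%, 3.93%, 1.84% and 0.807% were called in these settings. Pairs called separate numbered 33 with transcript length, with the adjusted p alone and with P2RY11 summed with its overlapping genes, and 31 to 32 with a single replicate. The share of P2RY11 among the overlapping genes, 8.21%, was 6.90% in TPM and 8.04% to 8.39% in single replicates. Against the readthrough gene alone it was 86.0%, or 78.7% with posterior mean counts, both chosen after seeing the data. Posterior mean TPM moved the mean TPM of 5 of the 9 receptors by less than 1 SD and that of 4 by more, to 5.80 for P2RY1, 0.16 for P2RY4, 23.4 for P2RY11 and 4.31 for S1PR2. No paired analysis was possible because there was 1 group only. At this depth P2RY4, CHRM3 and P2RY2 rest on 2, 69 and 41 counts in all, so their levels are the least precise of the 9.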
